A study of Homo sapiens with 6 samples.

Results

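KLF2 and 9 other Krüppel-like factor (KLF) genes, KLF3, KLF4, KLF5, KLF6, KLF9, KLF10, KLF11, KLF13 and KLF16, were followed in the human multiple myeloma line KMM1. They were taken by gene name, 10 of the 57290 genes in the deposited tables, and the values of all transcripts with the same gene identifier were summed. The comparison was between 3 libraries from cells transduced with a lentivirus expressing TAZ (TAZ libraries 1 to 3) and 3 libraries from cells given WPI, the same treatment with an empty vector (WPI libraries 1 to 3). All cells received a lentivirus, and polyadenylated RNA was taken 4 days after transduction. TAZ, the product of WWTR1, is a Hippo pathway co-activator and works with TEAD factors. The promoter that drives the transgene, the share of cells transduced and whether the libraries came from separate cultures are not given in the sources used here. The p-values therefore measure only the spread between these libraries, which may be technical.

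KLF proteins bind GC-rich boxes and CACCC elements in promoters through zinc fingers at their C-terminal end. They fall by their N-terminal parts into activators (KLF2, KLF4, KLF5 and KLF6 here), repressors that recruit CtBP (KLF3) and factors that bind the SIN3 corepressor (KLF9, KLF10, KLF11, KLF13 and KLF16). KLF2 is known for holding lymphocytes in quiescence and for directing their traffic, and in myeloma cells it is known to sustain IRF4 downstream of the histone demethylase KDM3A. KLF4 shares with KLF2 a route of induction through the kinase ERK5 and MEF2 factors.

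Levels are given as scaled TPM, the transcript abundance (TPM) of StringTie summed per gene and scaled between libraries, so that genes can be compared per unit of length. The libraries held 1100 to 2033 megabases of aligned sequence, and WPI library 3 correlated with WPI library 2 at 0.926 and with WPI library 1 at 0.897, the second of which was below its correlations with TAZ libraries 1 to 3 (0.918, 0.905 and 0.902). WWTR1 had 365, 138 and 145 scaled TPM in TAZ libraries 1 to 3, against 2.35, 1.21 and 1.40 in WPI libraries 1 to 3, a log2 difference of 6.22 ± 0.41 (SE, n = 3 libraries per group; limma adjusted p = 8.35e-04). All 8 plasma cell markers listed (SDC1, IRF4, PRDM1, XBP1, TNFRSF17, SLAMF7, CD38 and MZB1) were above the test's minimum level, whereas none of 4 B cell markers and none of 6 T and NK cell markers were. Across 19390 tested genes the median log2 difference, TAZ minus WPI, was -0.05, and 10624 genes (54.8%) lay below 0.

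KLF2 was the member that fell, and none rose. It had 3.25, 3.05 and 1.50 scaled TPM in TAZ libraries 1 to 3, against 11.1, 10.3 and 10.7 in WPI libraries 1 to 3. All 3 TAZ libraries lay below all 3 WPI libraries, the WPI values were close together, and TAZ library 3 was the lowest of all. The means were 2.60 ± 0.960 and 10.7 ± 0.403 scaled TPM in TAZ and WPI (SD, n = 3 each), a ratio of 0.243, and the log2 difference on log2(scaled TPM + 1) was -1.74 ± 0.24 (SE; 95% interval -2.32 to -1.17; limma, Benjamini-Hochberg adjusted p = 0.0134 over all tested genes). Of the 10 members 9 reached the test's minimum, an average of 1 TPM over the libraries, and KLF2 alone passed an adjusted p of 0.05, against 3.21% of all tested genes in either direction, 0.964% in the lower and 2.25% in the higher direction. The KLF2 values rested on 5350, 3901 and 2185 aligned bases in TAZ libraries 1 to 3, against 19687, 21003 and 11739 aligned bases in WPI libraries 1 to 3. In bulk RNA, fewer cells with KLF2 transcripts and fewer transcripts per cell cannot be told apart. The call was lost without TAZ library 2 (adjusted p = 0.0519), without WPI library 1 (0.0532) and without WPI library 2 (0.0609), and with no filter on low values (0.0504); the log2 difference lay between -1.89 and -1.49 when any 1 library was left out.

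KLF2 (ENSG00000127528.5) lies on chromosome 19, 16435628 to 16438685 on the plus strand of hg19, and no other annotated gene overlapped it. The whole of its TPM was assigned to 1 transcript, ENST00000248071.5, in all 6 libraries. Its second exon, which is coding over all of its 817 bases, had a mean read depth of 0.790, 1.08 and 0.637 per 1000 megabases aligned in TAZ libraries 1 to 3, against 2.20, 2.16 and 3.84 in WPI libraries 1 to 3. The third exon, with 176 coding and 843 untranslated bases, had a depth of 2.63, 2.52 and 1.23 in TAZ libraries 1 to 3, against 9.47, 8.40 and 7.39 in WPI libraries 1 to 3. The groups did not overlap in either exon, so the lower level was alike in direction in the coding exon 2 and in the mostly untranslated exon 3. The depth of the untranslated bases alone is not given. The depth in TAZ libraries was 30.6% of that in WPI libraries in exon 2 and 25.3% in exon 3 (exact two-sided permutation p = 0.1 for each, the smallest that 3 against 3 libraries allow). Depth was divided by aligned bases alone, without the scaling between libraries used for scaled TPM, so these shares are on another scale than the ratio of 0.243. Exon 1, which carries the start of the coding sequence in 182 bases, was listed at 0 in every library of both groups.

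The promoters of KLF2 and of KLF4, which shares its route of induction, are shown because MEF2 factors are known to act at a site just upstream of the KLF2 start. The 240 bases at the far end of the RefSeq promoter window are printed 5′ to 3′ on the gene's own strand (GRCh38.p14; KLF2 at chr19:16324576-16324815, plus strand; KLF4 at chr9:107489780-107490019, minus strand). Capitals mark matches to the MEF2 motif CTANNNNTAG and to the GC box GGGCGG on either strand, which do not overlap each other in these stretches.
KLF2: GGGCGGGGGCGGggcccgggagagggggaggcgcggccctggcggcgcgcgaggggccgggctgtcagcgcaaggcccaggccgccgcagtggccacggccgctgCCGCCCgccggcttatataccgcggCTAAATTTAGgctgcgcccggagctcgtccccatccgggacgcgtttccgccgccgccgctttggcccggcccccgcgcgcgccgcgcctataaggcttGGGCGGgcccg
KLF4: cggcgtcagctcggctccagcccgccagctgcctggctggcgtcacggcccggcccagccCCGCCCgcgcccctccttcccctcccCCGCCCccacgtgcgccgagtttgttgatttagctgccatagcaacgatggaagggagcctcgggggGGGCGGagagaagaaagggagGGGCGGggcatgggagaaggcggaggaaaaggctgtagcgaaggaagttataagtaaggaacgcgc
The KLF2 window of 300 bases held 1 MEF2 match, CTAAATTTAG, 120 bases before the start, and 6 GC boxes, of which 4 lie in the printed stretch. The KLF4 window held 4 GC boxes and no MEF2 match. A MEF2 match was present in 2.73% of the 35116 RefSeq windows of this length and a GC box in 45% of them. Windows matched 8 of the 10 members, not KLF3 and KLF10, and gave 10 windows, since KLF5 and KLF11 have 2 each. Besides KLF2, 1 of the 2 KLF11 windows held a MEF2 match, 18 bases before its start. The TEAD core GGAATG was in none of the 10 windows and in 14% of all windows. The element CACCC was in neither the KLF2 nor the KLF4 window and in 59.9% of all windows. These are matches of letters in short windows, and binding was not measured.

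The members spanned a wide range of levels. In TAZ libraries the order by mean scaled TPM was KLF6, KLF13, KLF10, KLF16, KLF11, KLF3, KLF9, KLF5, KLF2 and KLF4, and in WPI libraries it was KLF13, KLF6, KLF10, KLF16, KLF11, KLF3, KLF2, KLF9, KLF5 and KLF4. KLF2 thus stood ninth of 10 in TAZ libraries (rank 9), below KLF9 and KLF5 with no overlap of their library values, and seventh in WPI libraries (rank 7), where its values overlapped those of KLF3 and KLF9. In TAZ libraries the neighbours from KLF6 down to KLF16 overlapped each other, and the neighbours from KLF16 down to KLF4 did not. In WPI libraries KLF13 lay above KLF6 with no overlap, and KLF6, KLF10, KLF16 and KLF11 overlapped in turn. The order depended on the transcript lengths behind the TPM. With 1 fixed length per gene, a scale chosen after the transcript values were seen, KLF13 (mean 55.9) and KLF10 (53.6) lay above KLF6 (35.4) in TAZ libraries, and in WPI libraries KLF16 (45.7) and KLF10 (38.3) lay above KLF6 (27.5) and KLF2 (13.4) above KLF3 (11.1). All 10 members were above 0 TPM in every library, and their summed level was 255 to 265 scaled TPM in TAZ libraries and 228 to 278 in WPI libraries.

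The other members lie apart from KLF2 in hg19, KLF16 alone being on the same chromosome. The activators are KLF4 (ENSG00000136826.10) on chromosome 9, 110247133 to 110252763, minus strand, KLF5 (ENSG00000102554.9) on chromosome 13, 73629114 to 73651676, plus strand, and KLF6 (ENSG00000067082.10) on chromosome 10, 3818188 to 3827473, minus strand. The CtBP-recruiting repressor is KLF3 (ENSG00000109787.8) on chromosome 4, 38665817 to 38702663, plus strand. Of the factors that bind SIN3, the files place KLF9 (ENSG00000119138.3) on chromosome 9, 72999503 to 73029540, minus strand, KLF10 (ENSG00000155090.10) on chromosome 8, 103661007 to 103668130, minus strand, and KLF11 (ENSG00000172059.6) on chromosome 2, 10182976 to 10194963, plus strand. They place KLF13 (ENSG00000169926.5) on chromosome 15, 31619058 to 31727868, plus strand, and KLF16 (ENSG00000129911.4) on chromosome 19, 1852399 to 1863567, minus strand.

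**Figure D1:**
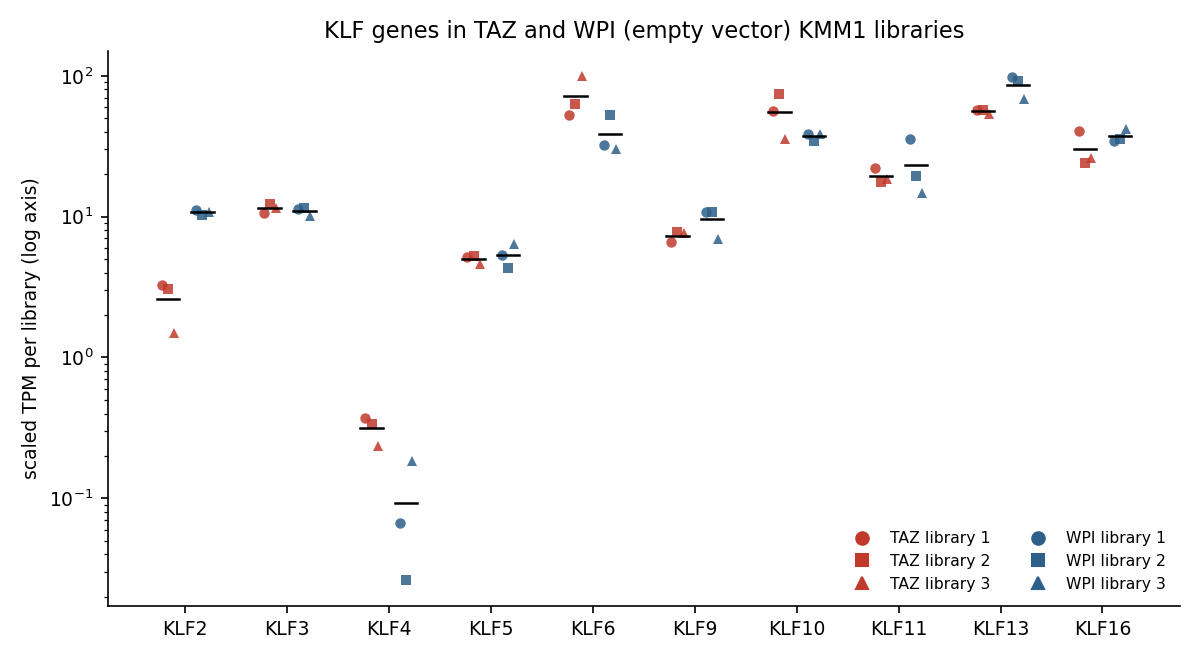
Scaled TPM (log axis) of each KLF gene in each library, TAZ libraries in red to the left and WPI libraries in blue to the right, with 1 symbol per library number and a line at the group mean. KLF2 is the gene with a wide gap between the groups, at 1.50 to 3.25 in TAZ libraries and 10.3 to 11.1 in WPI libraries, while KLF4 lies below 1 in all libraries.

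Among the other activators, KLF4, a factor of pluripotency that also slows the division of mouse B cells, was barely present. It had 0.372, 0.339 and 0.237 scaled TPM in TAZ libraries 1 to 3, against 0.0668, 0.0261 and 0.183 in WPI libraries 1 to 3. All 3 TAZ libraries lay above the WPI libraries, in the direction opposite to KLF2, but the gene stayed under the minimum of 1 TPM and was not tested in the main comparison. These values rested on 853, 604 and 416 aligned bases in TAZ libraries and 165, 71.5 and 81.5 in WPI libraries. The transcript with the whole coding sequence, ENST00000374672.4, held 80.3% to 100% of its TPM in TAZ libraries and was listed at 0 in WPI libraries 2 and 3. With the minimum lowered to 0.1 TPM, KLF4 had a log2 difference of 0.27 ± 0.11 (SE; limma adjusted p = 0.341).

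KLF5, which promotes growth in epithelia, had 5.17, 5.27 and 4.64 scaled TPM in TAZ libraries 1 to 3, against 5.38, 4.30 and 6.37 in WPI libraries 1 to 3. The groups overlapped, and the log2 difference was -0.06 ± 0.18 (SE; 95% interval -0.50 to 0.37; limma adjusted p = 0.878). All of its TPM was assigned to ENST00000377687.4 in every library.

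KLF6, a growth suppressor that is known to induce CDKN1A, had the largest mean of the members in TAZ libraries by scaled TPM, a rank that was lost with a fixed length per gene. It had 53.0, 63.5 and 99.7 scaled TPM in TAZ libraries 1 to 3, against 32.1, 53.0 and 30.1 in WPI libraries 1 to 3. The groups were barely separate, since TAZ library 1 and WPI library 2 printed the same value to 3 digits. The log2 difference was 0.89 ± 0.32 (SE; 95% interval 0.12 to 1.65) and did not pass (limma adjusted p = 0.227). This value depended on the transcripts to which reads were assigned. The 4656-base transcript ENST00000497571.1 led in all 3 WPI libraries, with 89.6%, 59.5% and 61.3% of the KLF6 TPM. In TAZ library 1 a 432-base non-coding transcript (ENST00000492125.1) led with 56.5%, in TAZ library 2 a 764-base non-coding transcript (ENST00000461124.1) led with 66.5%, and in TAZ library 3 ENST00000497571.1 led with 46.4%. TPM divides by the length of the assigned transcript, so the aligned bases were also divided by 1 fixed length per gene, a check chosen after the transcript values were seen. On that scale KLF6 had 24.7, 26.8 and 54.7 in TAZ libraries 1 to 3, against 27.9, 34.6 and 19.9 in WPI libraries 1 to 3. The groups then overlapped, and the log2 difference was 0.29 ± 0.36 (SE; limma adjusted p = 0.692).

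The exons of KLF6 did not all separate the groups. Exon 1 (363 bases) had a depth of 41.7, 35.1 and 31.7 per 1000 megabases in TAZ libraries 1 to 3, against 12.0, 15.2 and 15.5 in WPI libraries 1 to 3, with no overlap. The second exon (574 bases, all coding) had 66.2, 72.0 and 197 in TAZ libraries 1 to 3, against 107, 113 and 60.6 in WPI libraries 1 to 3. There the groups overlapped, with TAZ library 3 the highest and WPI library 3 the lowest. The next exon was listed in several lengths, 2 of them in the short non-coding transcripts. Its 112-base form had 0, 162 and 139 in TAZ libraries 1 to 3, against 11.7, 37.8 and 21.6 in WPI libraries 1 to 3. Its 391-base form had 16.8, 0 and 5.91 in TAZ libraries 1 to 3, against 0, 2.77 and 1.35 in WPI libraries 1 to 3. Both forms overlapped. The 3595-base last exon was thinly covered and also overlapped, at 0.370, 0.425 and 0.625 in TAZ libraries 1 to 3, against 0.719, 0.805 and 0.514 in WPI libraries 1 to 3.

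**Figure D2:**
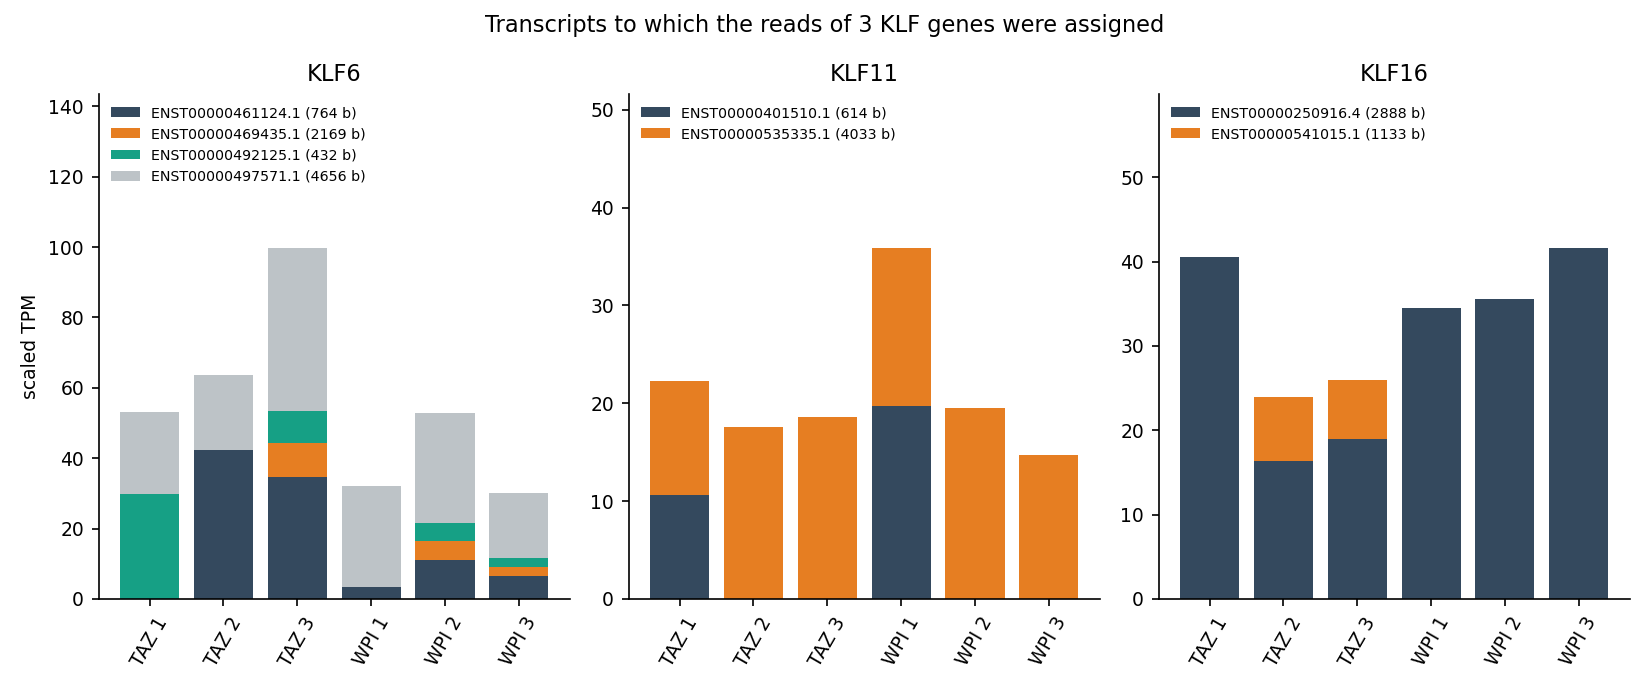
Scaled TPM of KLF6, KLF11 and KLF16 in each library, TAZ libraries left of WPI libraries, stacked by the transcript to which the reads were assigned, with transcript lengths in the legends. The KLF6 bars of TAZ libraries 1 and 2 hold large parts of short transcripts (56.5% and 66.5%), KLF11 has a short part in TAZ library 1 and WPI library 1 only, and KLF16 has a second part in TAZ libraries 2 and 3 only.

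KLF3, the CtBP-recruiting repressor of the set, had 10.6, 12.2 and 11.5 scaled TPM in TAZ libraries 1 to 3, against 11.4, 11.5 and 10.1 in WPI libraries 1 to 3. The groups overlapped and the log2 difference was 0.05 ± 0.15 (SE; 95% interval -0.31 to 0.41; limma adjusted p = 0.887). ENST00000261438.5 held 92.7% to 100% of its TPM. An antisense gene, RP11-617D20.1, overlaps the 5′ part of KLF3 at 0.270 to 0.641 scaled TPM in TAZ libraries and 0.150 to 0.509 in WPI libraries, and the sources used here do not say whether reads were assigned by strand.

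The 5 members that bind SIN3 did not pass the test. KLF13, known as a factor of late activated T cells that drives CCL5, came closest. It had 57.1, 57.6 and 54.0 scaled TPM in TAZ libraries 1 to 3, against 98.3, 91.3 and 68.3 in WPI libraries 1 to 3. All 3 TAZ libraries lay below the WPI libraries, and the TAZ values were close together. The means were 56.2 ± 1.95 and 86.0 ± 15.7 scaled TPM in TAZ and WPI (SD, n = 3 each), with a log2 difference of -0.59 ± 0.19 (SE; 95% interval -1.04 to -0.14; limma adjusted p = 0.183). Its transcript ENST00000307145.3 held 98.9% to 99.9% of the TPM, so this value did not depend on the assigned length. The long second exon (5890 bases, of which 5600 are untranslated) had a depth of 32.7, 36.4 and 36.2 per 1000 megabases in TAZ libraries 1 to 3, against 57.2, 51.8 and 37.8 in WPI libraries 1 to 3. The first exon (935 bases, 577 of them coding) had 4.92, 4.31 and 3.96 in TAZ libraries 1 to 3, against 3.07, 4.97 and 6.77 in WPI libraries 1 to 3. The separation of the groups thus lay in the second exon, and the first exon overlapped.

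KLF10 and KLF11 were first described as early genes induced by TGF-beta. KLF10 had 56.1, 73.8 and 35.5 scaled TPM in TAZ libraries 1 to 3, against 38.8, 34.7 and 38.5 in WPI libraries 1 to 3. TAZ libraries 1 and 2 lay above the WPI libraries and TAZ library 3 among them, and the log2 difference was 0.49 ± 0.28 (SE; limma adjusted p = 0.399). Its 913-base coding exon had a depth of 43.2, 55.0 and 57.0 in TAZ libraries 1 to 3, against 32.3, 30.8 and 26.9 in WPI libraries 1 to 3, with no overlap. The neighbouring 234-base exon had 0.0077, 47.9 and 47.6 in TAZ libraries 1 to 3, against 10.9, 17.4 and 20.0 in WPI libraries 1 to 3, so the groups overlapped there through TAZ library 1, which was near 0. The last exon, of 1613 bases, had 30.0, 40.2 and 0.144 in TAZ libraries 1 to 3, so in TAZ library 3 almost none of the KLF10 depth lay there. In WPI libraries 1 and 3 that exon had 17.8 and 18.1, and in WPI library 2 the reads were assigned to a 1606-base version of it, at 18.8.

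**Figure D3:**
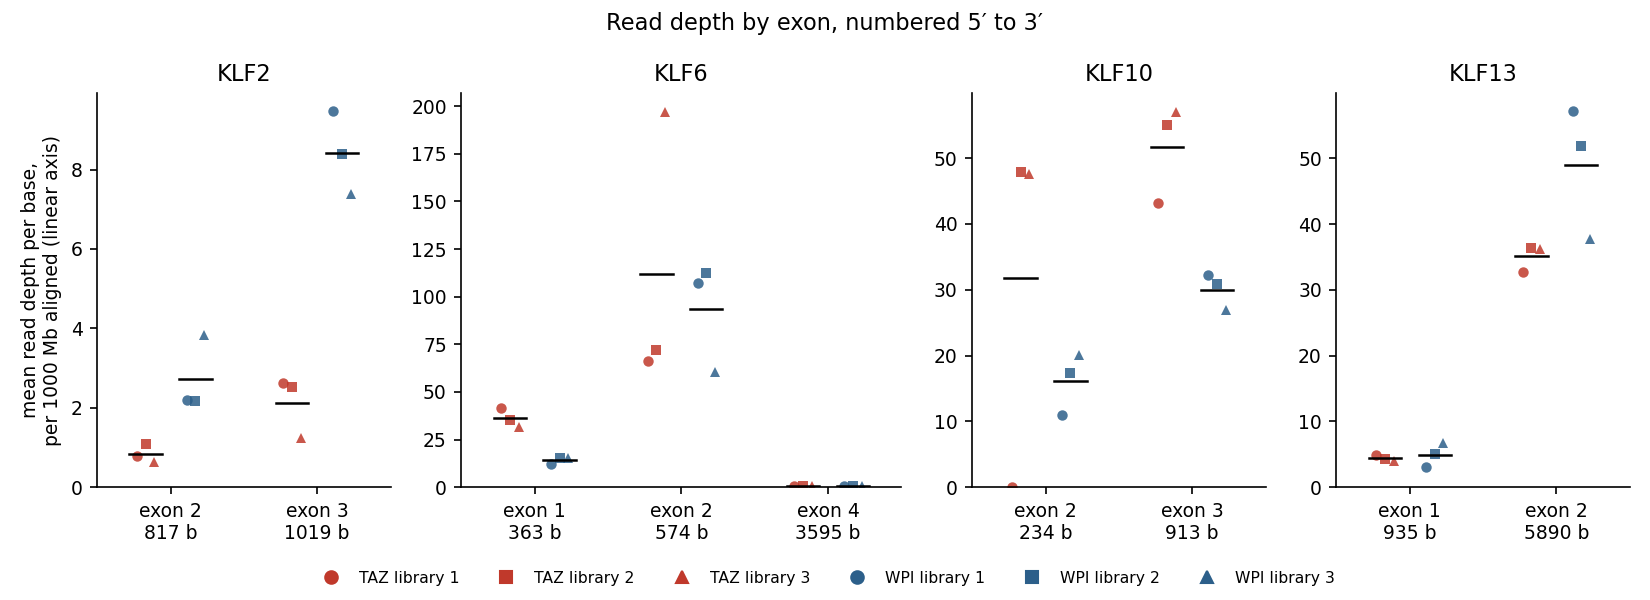
Mean read depth per base (linear axis, per 1000 megabases aligned) in exons of KLF2, KLF6, KLF10 and KLF13, with TAZ libraries in red left of WPI libraries in blue, 1 symbol per library number and a line at the group mean. Both KLF2 exons are lower in all 3 TAZ libraries (0.637 to 1.08 and 1.23 to 2.63) than in all 3 WPI libraries (2.16 to 3.84 and 7.39 to 9.47), whereas KLF13 differs in exon 2 and overlaps in exon 1.

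KLF11 had 22.3, 17.5 and 18.6 scaled TPM in TAZ libraries 1 to 3, against 35.9, 19.5 and 14.7 in WPI libraries 1 to 3. WPI library 1 was the highest, and there 55.0% of the TPM was assigned to a 614-base transcript (ENST00000401510.1) that otherwise held reads in TAZ library 1 alone. The log2 difference was -0.16 ± 0.32 (SE; limma adjusted p = 0.818), and its sign turned to 0.18 without WPI library 1 and to 0.085 without scaling between libraries. Per fixed length KLF11 had 14.6, 19.3 and 20.6 in TAZ libraries 1 to 3, against 21.1, 21.5 and 16.2 in WPI libraries 1 to 3, with the groups overlapping.

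KLF9, a gene induced by glucocorticoids, had 6.61, 7.82 and 7.61 scaled TPM in TAZ libraries 1 to 3, against 10.8, 10.9 and 7.00 in WPI libraries 1 to 3. WPI libraries 1 and 2 lay above the TAZ libraries and WPI library 3 among them. The log2 difference was -0.32 ± 0.21 (SE; limma adjusted p = 0.461). KLF16, an SP1-like repressor that binds GC boxes, had 40.5, 24.0 and 25.9 scaled TPM in TAZ libraries 1 to 3, against 34.5, 35.6 and 41.6 in WPI libraries 1 to 3. TAZ libraries 2 and 3 lay below the WPI libraries and TAZ library 1 among them, with a log2 difference of -0.33 ± 0.23 (SE; limma adjusted p = 0.496). In TAZ libraries 2 and 3 the 1133-base transcript ENST00000541015.1 held 7.61 and 7.00 scaled TPM of KLF16, and it was listed at 0 in TAZ library 1 and in all WPI libraries.

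Over the 9 tested members the median log2 difference was -0.16 and 6 lay below 0, against a median of -0.05 and 54.8% below 0 over all tested genes. In 3 of the 9 the groups did not overlap, KLF6 higher and KLF2 and KLF13 lower in TAZ libraries. Over all tested genes the groups did not overlap in 24.9%, with 10.1% higher and 14.8% lower, so this share of the members is near that of genes at large. Of 7 KLF genes listed outside the set (KLF1, KLF7, KLF8, KLF12, KLF14, KLF15 and KLF17) 3 were tested and none rose or fell, with a median log2 difference of -0.15. KLF8, a CtBP-recruiting repressor like KLF3, had 4.25, 4.74 and 6.78 scaled TPM in TAZ libraries 1 to 3, against 2.91, 3.31 and 2.85 in WPI libraries 1 to 3. Its groups did not overlap, and its log2 difference of 0.62 ± 0.20 (SE) did not pass (limma adjusted p = 0.196).

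**Figure D4:**
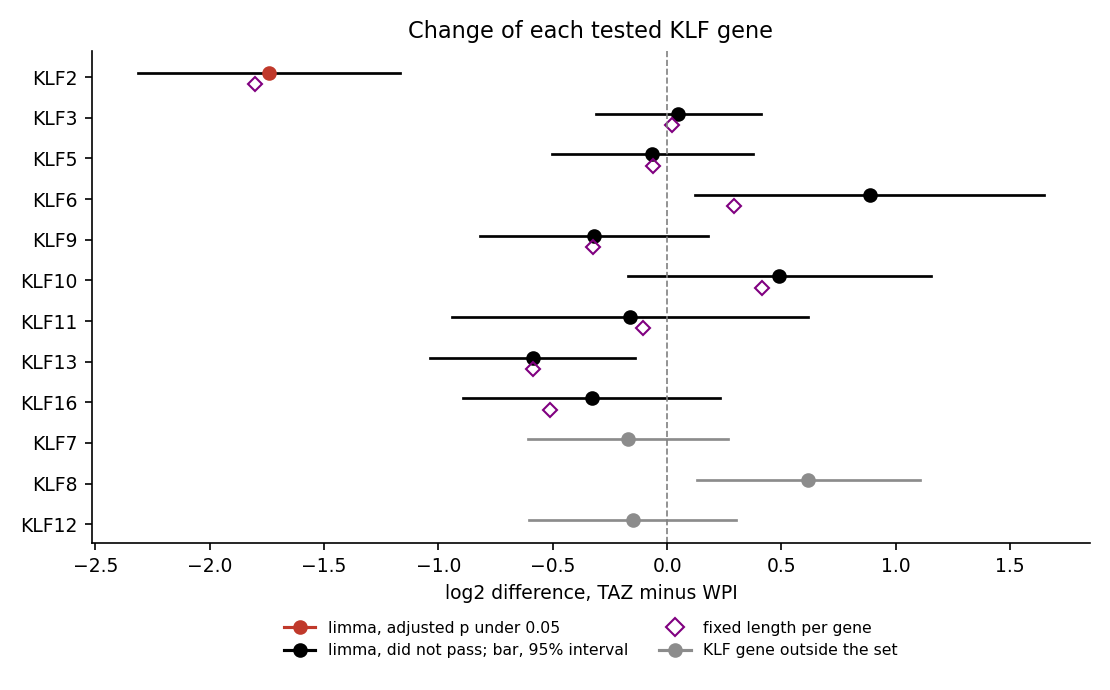
Log2 difference (TAZ minus WPI) of the 9 tested KLF genes of the set and of 3 tested KLF genes outside it (grey), with bars for the 95% interval, and open diamonds for the difference computed with 1 fixed length per gene. KLF2 stands at -1.74 and alone passed the test, and KLF6 is the gene whose diamond (0.29) lies farthest from its point (0.89).

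Upstream of KLF2 and KLF4, none of 10 listed genes rose or fell: the kinases MAP3K2, MAP3K3, MAP2K5 and MAPK7 (ERK5), the factors MEF2A, MEF2C, MEF2D, FOXO1 and FOXO3, and KDM3A. Their median log2 difference was -0.11. In 3 of the 10 the groups did not overlap, near the 24.9% of all tested genes. MEF2A and MEF2C varied widely between libraries, with 95% intervals of -2.08 to 1.52 and -1.71 to 1.75. Even large changes of these 2 genes could not be resolved. FOXO1, a known activator of KLF2 in lymphocytes, had 7.60, 8.27 and 7.52 scaled TPM in TAZ libraries 1 to 3, against 14.6, 12.9 and 10.7 in WPI libraries 1 to 3. MEF2D had 52.5, 46.5 and 50.3 in TAZ libraries 1 to 3, against 88.8, 78.5 and 66.3 in WPI libraries 1 to 3. Both were lower in all TAZ libraries, with log2 differences of -0.63 ± 0.17 (SE) each that did not pass (limma adjusted p = 0.126 for FOXO1 and 0.131 for MEF2D). FOXO3 lay the other way, with 40.3, 37.9 and 36.8 scaled TPM in TAZ libraries 1 to 3, against 10.6, 8.66 and 26.5 in WPI libraries 1 to 3. Its difference of 1.43 ± 0.39 (SE) did not pass either (limma adjusted p = 0.130), and WPI library 3 was the closest of the WPI libraries to the TAZ libraries. KDM3A had 7.64 ± 2.08 scaled TPM in TAZ libraries and 8.96 ± 4.65 in WPI libraries (SD, n = 3 each; limma adjusted p = 0.902).

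Among 5 genes that KLF2 is known to activate in lymphocytes or endothelium (S1PR1, CCR7, ITGB7, NOS3 and THBD), 3 were tested, 1 rose and none fell, with a median log2 difference of 0.02. ITGB7, the beta-7 integrin chain that depends on Klf2 in mouse plasma cells, had 776, 1320.2 and 500.3 scaled TPM in TAZ libraries 1 to 3, against 129, 133 and 217 in WPI libraries 1 to 3. All TAZ libraries lay above all WPI libraries, so ITGB7 moved opposite to KLF2. The log2 difference was 2.36 ± 0.40 (SE; limma adjusted p = 0.0302), and the call was lost without TAZ library 1 (0.0807), TAZ library 2 (0.0786), WPI library 1 (0.0963) or WPI library 2 (0.113). S1PR1, the exit receptor that is the best known KLF2 target in T cells, had 4.03 ± 1.05 scaled TPM in TAZ libraries and 3.91 ± 0.471 in WPI libraries (SD, n = 3 each; limma adjusted p = 0.973).

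The chemokine receptors CCR3 and CXCR3, which are raised in mouse T cells without Klf2, were both tested, and CCR3 fell. CCR3 had 3.78, 2.36 and 4.86 scaled TPM in TAZ libraries 1 to 3, against 42.5, 37.5 and 21.6 in WPI libraries 1 to 3. Its log2 difference was -2.88 ± 0.32 (SE; limma adjusted p = 0.00577), and the groups were far apart. The CCR3 call was lost when the replicate number was added to the fit as a block (0.0620). CXCR3, with 0.583 ± 0.152 scaled TPM in TAZ libraries and 2.27 ± 0.900 in WPI libraries (SD, n = 3 each), did not pass (log2 difference -1.01 ± 0.26, SE; limma adjusted p = 0.108). Both receptors were thus lower in all TAZ libraries, the same direction as KLF2 itself.

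Targets of other members gave 1 call. Of 8 listed genes (CDKN1A, CCL5, LGALS3, PMAIP1, SMAD7, MAOA, MAOB and CCND1) 6 were tested, CDKN1A rose and none fell, with a median log2 difference of -0.00. CDKN1A, the cyclin-dependent kinase inhibitor p21 that KLF4 and KLF6 are known to induce, had 18.3, 12.1 and 13.7 scaled TPM in TAZ libraries 1 to 3, against 5.21, 5.30 and 5.66 in WPI libraries 1 to 3. The groups were separate and the log2 difference was 1.28 ± 0.19 (SE; limma adjusted p = 0.0186). That call was lost without TAZ library 2 (0.0527), TAZ library 3 (0.0840), WPI library 1 (0.0627) or WPI library 2 (0.0874). CCL5, the target of KLF13, had 7.19 ± 2.78 scaled TPM in TAZ libraries and 8.08 ± 3.60 in WPI libraries (SD, n = 3 each; limma adjusted p = 0.871).

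**Figure D5:**
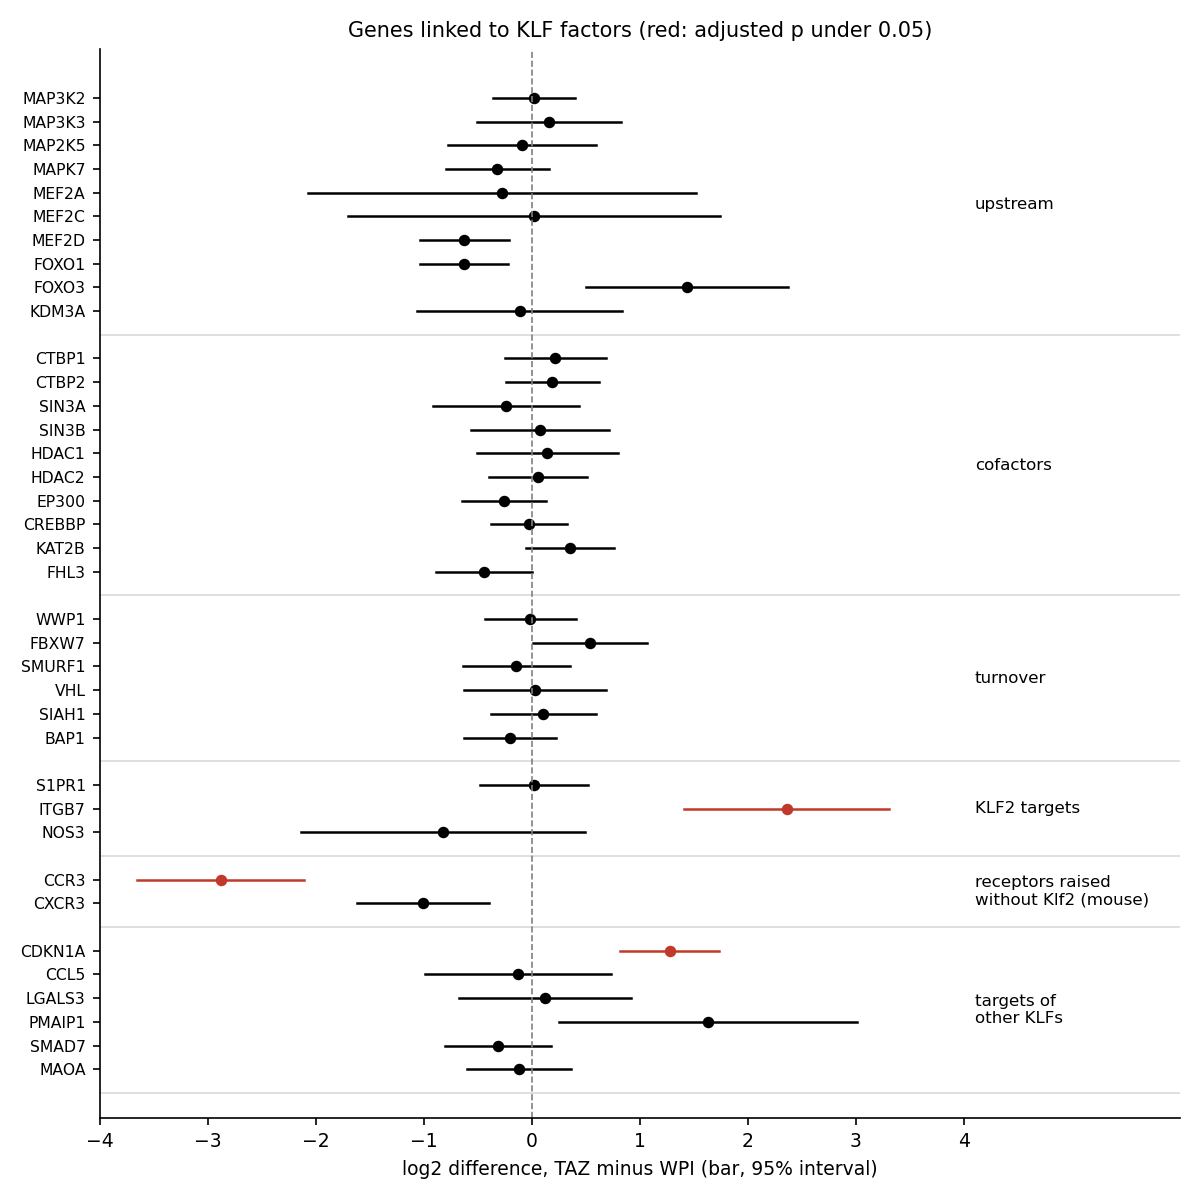
Log2 difference (TAZ minus WPI, point) with its 95% interval (bar) for tested genes upstream of KLF2 and KLF4, cofactors, turnover enzymes and known targets, with genes that passed an adjusted p of 0.05 in red. The upstream, cofactor and turnover groups hold no red point, and the red points are ITGB7 at 2.36, CCR3 at -2.88 and CDKN1A at 1.28.

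KLF10 and KLF11 belong to the early response to TGF-beta and KLF9 to the response to glucocorticoids. None of these members passed, while 1 listed gene of each response did. Of 5 early TGF-beta genes (SMAD7, SKIL, SKI, PMEPA1 and TGIF1) 4 were tested, with a median log2 difference of 0.35. TGIF1, a corepressor of SMAD factors, rose, with 6.32, 6.19 and 4.71 scaled TPM in TAZ libraries 1 to 3, against 2.46, 2.49 and 2.02 in WPI libraries 1 to 3 (log2 difference 1.01 ± 0.18, SE; limma adjusted p = 0.0373). The TGIF1 call was lost whichever library was left out (adjusted p of 0.0900, 0.185 and 0.0816 without TAZ libraries 1, 2 and 3, and of 0.0948, 0.131 and 0.0591 without WPI libraries 1, 2 and 3) and with a fixed length per gene (0.101). Of 7 glucocorticoid genes (NR3C1, TSC22D3, FKBP5, PER1, ZBTB16, DUSP1 and SGK1) 6 were tested, with a median of -0.07. They did not move together. FKBP5 was higher and SGK1 lower in all TAZ libraries, and neither passed (limma adjusted p = 0.264 and 0.190). TSC22D3 (GILZ) fell, with 83.4, 83.5 and 83.9 scaled TPM in TAZ libraries 1 to 3, against 277, 226 and 171 in WPI libraries 1 to 3. Its log2 difference was -1.39 ± 0.21 (SE; limma adjusted p = 0.0198), and the call was lost without TAZ library 1 (0.0595), TAZ library 2 (0.102), TAZ library 3 (0.0898) or WPI library 2 (0.0945), and without scaling between libraries (0.0716).

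Some markers of plasma cells and of epithelial, fibroblast and myeloid cells also passed the test. Of 8 plasma cell markers 3 fell and none rose, and their summed level overlapped, at 1101 to 1281 scaled TPM in TAZ libraries and 1182 to 1963 in WPI libraries. IRF4, the plasma cell factor that KLF2 is known to sustain in myeloma, had 193, 222 and 185 scaled TPM in TAZ libraries 1 to 3, against 527, 454 and 348 in WPI libraries 1 to 3. Its log2 difference was -1.13 ± 0.21 (SE; limma adjusted p = 0.0421), and the call was lost when any library but WPI library 3 was left out (adjusted p of 0.0857, 0.140 and 0.173 without TAZ libraries 1, 2 and 3, and of 0.108 and 0.167 without WPI libraries 1 and 2) and without scaling between libraries (0.150). SDC1 (syndecan-1, CD138) and SLAMF7 also fell, with log2 differences of -1.43 ± 0.16 and -1.61 ± 0.27 (SE; limma adjusted p = 0.00521 and 0.0302). The SLAMF7 call was lost without any of the TAZ libraries (0.0795 to 0.109), without WPI library 1 (0.0738) or WPI library 2 (0.121), and without scaling (0.0918).

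Of 5 epithelial markers 4 were tested, KRT8 and KRT18 rose, and EPCAM and CDH1 did not pass. The groups overlapped in EPCAM, and by scaled TPM CDH1 was lower in all TAZ libraries, opposite to the keratins. CDH1 had 17.1, 28.4 and 30.1 scaled TPM in TAZ libraries 1 to 3, against 52.2, 57.0 and 36.9 in WPI libraries 1 to 3 (limma adjusted p = 0.161). Its aligned bases were 29757, 63458 and 64851 in TAZ libraries 1 to 3. In WPI libraries 1 to 3 they were 119479, 154580 and 39557, so by aligned bases the groups overlapped. The summed level was 957 to 2293 scaled TPM in TAZ libraries and 194 to 322 in WPI libraries. Most of the sum in TAZ libraries was KRT8, with 2217, 864 and 931 in TAZ libraries 1 to 3. The KRT8 call (log2 difference 2.89 ± 0.41, SE; limma adjusted p = 0.0158) was lost without WPI library 1 (0.0545) or WPI library 2 (0.0628). Of 6 fibroblast markers 2 were tested and DCN rose, at a summed level of 6.52 to 7.23 scaled TPM in TAZ libraries and 2.27 to 2.79 in WPI libraries. Of 5 myeloid markers CD14 alone was tested and fell, at a summed level of 1.95 to 2.00 in TAZ libraries and 5.09 to 5.87 in WPI libraries, and CD68 was listed at 0 in all libraries. The CD14 call was lost whichever library was left out (adjusted p of 0.0840, 0.168 and 0.186 without TAZ libraries 1, 2 and 3, and of 0.116, 0.0911 and 0.0594 without WPI libraries 1, 2 and 3). B cell markers summed to 0.195 to 1.13 scaled TPM in TAZ libraries and 0.566 to 0.600 in WPI libraries, and T and NK cell markers to 1.01 to 1.57 and 0.729 to 1.22, with NKG7 listed at 0 throughout. Of 4 endothelial markers 3 were in the tables and none was tested, at sums of 0.0905 to 0.145 in TAZ libraries and 0 to 0.223 in WPI libraries. The part of these markers in the KLF2 result was not tested.

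The genes whose profile over the 6 libraries was most like that of KLF2 were FUT5, TNFRSF9, IGHV1-69, PRSS3 and RHOB. Likeness was the root-mean-square difference of log2(scaled TPM + 1), each gene centred on its own mean, over the 12694 tested genes that averaged 5 TPM or more. It was 0.154 for FUT5, 0.164 for TNFRSF9, 0.165 for IGHV1-69, 0.207 for PRSS3 and 0.210 for RHOB. FUT5, a fucosyltransferase, had 8.29, 10.5 and 4.55 scaled TPM in TAZ libraries 1 to 3, against 24.6, 27.8 and 24.5 in WPI libraries 1 to 3. TNFRSF9 (4-1BB), a receptor of activated lymphocytes, had 6.17, 5.31 and 4.22 in TAZ libraries 1 to 3, against 20.0, 18.8 and 16.1 in WPI libraries 1 to 3. The WPI values of FUT5 were close together, as were those of KLF2. TAZ library 3 was the lowest library in FUT5 and TNFRSF9, as in KLF2, and also in IGHV1-69 (30.2), PRSS3 (1.98) and RHOB. RHOB, a small GTPase, had 97.0, 71.4 and 67.0 in TAZ libraries 1 to 3, against 258, 235 and 210 in WPI libraries 1 to 3. FUT5, IGHV1-69 and PRSS3 have near-identical relatives to which their reads could also have been assigned. These genes were picked for their likeness over the compared libraries, so their differences between the groups are a description and no further support.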

How the data were processed

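Polyadenylated RNA from 6 KMM1 libraries was sequenced on an Ion Torrent Proton instrument, 2 libraries per chip, per the labels' protocols. The pairs that shared a chip are not stated in the labels, so an effect of the chip could not be separated from that of the group. Per the submitters' processing notes, hg19 and the tools STAR 2.3.0, Bowtie2 2.0.0 and StringTie 1.3.3b were used. Per the file headers, StringTie estimated supplied transcripts only, 1 run per library, and the deposited values are coverage, FPKM and TPM of 195984 transcripts, written in an attribute field. The sources used here give neither the annotation release nor the use of strand. Deposited coverage and FPKM gave the aligned bases of each library.

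The authors' TPM was summed per gene and scaled by the median of ratios over the 28148 genes above 0 in every library. The 19390 genes averaging 1 TPM or more entered a limma fit (version 3.58.1, R 4.3.3; lmFit, eBayes with trend and robust, no block) of log2(scaled TPM + 1), with Benjamini-Hochberg adjustment over all of them at a threshold of 0.05. This scale understates the change of low genes. SE and 95% intervals come from that fit. Exon depth is the deposited exon coverage per 1000 megabases aligned. Coding bases per exon were taken from GENCODE for transcripts with the same version and exon lengths. The replicate numbers were not used to pair the libraries in the main fit. The procedure was tested on simulated data. Scaling, pseudocount, filter, unit, variance model, block and single libraries were varied, and a fixed length per gene was added after the data were seen. Named genes are all members, list genes that passed, and the 5 genes most like KLF2; other values were named after they were seen. The members and lists were chosen with earlier results of these data known. Some genes of the lists are not reported here. Spike-in values were not used here. Promoter sequences are from RefSeq (GRCh38.p14) and were not joined to hg19 coordinates.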

Additional observations from a re-analysis of the deposited data

How the results depend on the processing

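Over 16 alternatives KLF2 remained lower in TAZ libraries (log2 difference -2.08 to -1.49) and passed in 11 (adjusted p 0.00966 to 0.0721). With no filter on low values 352 genes and 0 KLF genes were called, and KLF2 had -1.74 (adjusted p = 0.0504), where more genes enter the adjustment. With the replicate number as a block 236 genes and 0 KLF genes were called, and KLF2 had -1.74 (adjusted p = 0.0721). The calls of CCR3, SDC1, ITGB7, CDKN1A, TGIF1, TSC22D3, IRF4, SLAMF7, CD14 and KRT8 were lost there too (limma adjusted p 0.0620 to 0.162). Same-numbered libraries correlated in their deviations at 0.004, -0.024 and -0.055, so the numbers were not treated as pairs. Leaving out 1 library at a time gave 278 to 774 called genes, 0 to 1 called KLF genes and a KLF2 difference of -1.89 to -1.49, with fewer samples in each fit; the ratio of KLF2 depth was -1.94 to -1.38 in exon 2 and -2.17 to -1.71 in exon 3 (log2). Without TAZ library 2, TAZ library 3, WPI library 1 or WPI library 2, 278, 331, 410 and 349 genes were called, against 623 with all. Without scaling between libraries 533 genes were higher and 85 lower, against 436 and 187, the median of all genes was 0.17 and not -0.05, and KLF5 (0.16) and KLF11 (0.085) changed sign. Without WPI library 3, KLF3 (-0.012) and KLF5 (0.045) changed sign, as did KLF11 (0.18) without WPI library 1; leaving out 1 library at a time gave -0.012 to 0.095 for KLF3, -0.19 to 0.045 for KLF5 and -0.44 to 0.18 for KLF11. With no filter the calls of CDKN1A, ITGB7, TGIF1, TSC22D3, IRF4, SLAMF7, CD14 and KRT8 were also lost (adjusted p 0.0531 to 0.126), with a minimum of 0.1 TPM those of IRF4 (0.0554) and CD14 (0.0558), without scaling that of CD14 (0.0886), and with upper-quartile scaling that of CD14 (0.0503). Of the list genes that passed, DCN and KRT18 kept their call under every alternative in which they were tested, 14 for DCN and 16 for KRT18. Their means in WPI libraries were 0.113 and 0.283 scaled TPM, so both reached the test's minimum only through the TAZ libraries. The cause of the lost calls and changed signs was not tested. KLF6, KLF9, KLF10, KLF13 and KLF16 kept their sign and KLF3 to KLF16 passed under none of the alternatives. With 3 libraries per group, SEs of 0.21 for KLF9 and 0.23 for KLF16 and a median SE of 0.24 over all tested genes, changes of the size of KLF9 or KLF16 could not be resolved. KLF2 itself rested on 2185 aligned bases in its thinnest library.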

Other observations

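KLF proteins act through corepressors and coactivators and are degraded through ubiquitin. None of 10 listed cofactors (CTBP1, CTBP2, SIN3A, SIN3B, HDAC1, HDAC2, EP300, CREBBP, KAT2B and FHL3) rose or fell, with a median log2 difference of 0.07. In 3 of the 10 the groups did not overlap, near the 24.9% of all tested genes. KAT2B was higher and FHL3 and EP300 were lower in TAZ libraries (limma adjusted p = 0.333, 0.276 and 0.442). EP300, an acetyltransferase, had 21.6 ± 1.62 scaled TPM in TAZ libraries and 26.2 ± 3.14 in WPI libraries (SD, n = 3 each). None of 6 enzymes of KLF protein turnover (WWP1, FBXW7, SMURF1, VHL, SIAH1 and BAP1) rose or fell, with a median of 0.01. FBXW7, a ubiquitin ligase subunit, had 18.6 ± 3.30 scaled TPM in TAZ libraries and 12.6 ± 2.66 in WPI libraries (SD, n = 3 each), a log2 difference of 0.54 ± 0.22 (SE; limma adjusted p = 0.274). Its aligned bases were 22956, 27213 and 27807 in TAZ libraries 1 to 3. In WPI libraries 1 to 3 they were 49990, 56078 and 22454. Per aligned megabase WPI libraries 1 and 2 lay above all TAZ libraries, so the higher TPM depended on the assigned transcripts.

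SP factors bind the same GC boxes as KLF factors. Of 9 listed, SP1 to SP4 were tested and none rose or fell, with a median log2 difference of -0.33 and all 4 below 0. SP4 had 1.62, 1.82 and 1.56 scaled TPM in TAZ libraries 1 to 3, against 2.28, 2.46 and 2.79 in WPI libraries 1 to 3. Its groups did not overlap, and its difference of -0.39 ± 0.17 (SE) did not pass (limma adjusted p = 0.283).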
